A study of Homo sapiens with 6 samples.

Results

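Chromosome 1 was described by every ATAC-seq summit on it, with its short arm set against its long arm and the parental MDA-MB-231 cells set against the SAP30-KO1 line. A summit is the single base where a called peak of open chromatin is highest. Summits were extended by 250 bp on each side and merged across libraries, which gave 5654 loci on chromosome 1 of 56419 in all. The short arm, up to position 121485434 of GRCh37 (hg19), held 2910 loci, and the long arm, from position 142535435, held 2744. Of these, 816 short-arm loci (28.0%) and 904 long-arm loci (32.9%) had a summit in all 6 libraries. The chromosome had been chosen because its short arm stood apart between parental and SAP30-KO1 cells in an earlier look at these lists, so values of that contrast are given as a description, with no test.

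The cells were MDA-MB-231, a long-established line from a human breast tumour without oestrogen, progesterone or HER2 receptors, grown in DMEM with fetal bovine serum, and there were 3 libraries of parental cells and 3 of SAP30-KO1 cells. SAP30-KO1 carries a CRISPR knockout of SAP30 and is a mixture of several selected knockout cells, so its 3 libraries describe 1 line, and loss of SAP30 cannot be told apart from any other difference between the line and its parent. Nothing in the labels says whether libraries of a group came from separate cultures, so p-values measure the spread between these libraries, which may be technical. The lists held 29762 to 40650 summits, of which 3104 to 4223 lay on chromosome 1, and they hold no measure of SAP30 itself and none of DNA copy number, so more open copies of a locus and more open chromatin per copy cannot be told apart. Among promoters of cell type markers, those of VIM, CD44 and CAV1, which mark mesenchymal-like breast cancer cells, had a summit in all 6 libraries, and AXL and FOSL1 had one in 2. Of the luminal markers, GATA3 had one in 5 libraries, FOXA1 in 2, ESR1 and PGR in 1 each and ELF3 in none, and the markers PTPRC, CD3E and ALB of other tissues had none in any library.

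ATAC-seq uses a transposase that inserts sequencing adapters where DNA is not packed by nucleosomes, so its peaks mark active promoters, enhancers and other regulatory sites. SAP30 is a subunit of the SIN3 complex, which carries histone deacetylases to chromatin and is best known for closing chromatin at repressed genes, although SIN3 is also found at active ones. Chromosome 1 is the largest human chromosome, and its arms are joined at a centromere that is followed on the long arm by a block of repeated sequence, which the reference genome leaves blank. No summit lay in that gap in any library.

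The sequences below are the central 201 bases of 7 promoter and 4 distal loci, read from GRCh37, plus strand. They are shown because they carry the values described later: genes followed by the study as repressed, KDM4A as a neighbour of IPO13, loci among those with the most different ranks on each arm, and a locus with summits in SAP30-KO1 cells only. Capitals mark matches, on either strand, to motifs spelled with plain letters: AP-1 (TGANTCA), the GC box (GGGCGG), the CCAAT box (CCAAT), ETS (CCGGAAG), the heat shock element (GAANNTTC), TEAD (GGAATG), a CTCF core (AGGGGGC) and the E-box (CACGTG). No motif contains another.
IPO13 promoter (chr1:44412276-44412476, plus strand): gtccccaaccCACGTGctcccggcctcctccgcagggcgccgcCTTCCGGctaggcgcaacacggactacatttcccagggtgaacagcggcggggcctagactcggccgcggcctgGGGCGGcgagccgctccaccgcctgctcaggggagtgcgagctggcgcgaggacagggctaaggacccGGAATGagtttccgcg
KDM4A promoter (chr1:44115649-44115849, plus strand): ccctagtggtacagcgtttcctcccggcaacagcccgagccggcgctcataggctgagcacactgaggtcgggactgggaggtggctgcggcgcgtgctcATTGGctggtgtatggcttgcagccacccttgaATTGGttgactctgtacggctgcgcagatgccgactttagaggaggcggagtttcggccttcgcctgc
CTBS promoter (chr1:85039923-85040123, plus strand): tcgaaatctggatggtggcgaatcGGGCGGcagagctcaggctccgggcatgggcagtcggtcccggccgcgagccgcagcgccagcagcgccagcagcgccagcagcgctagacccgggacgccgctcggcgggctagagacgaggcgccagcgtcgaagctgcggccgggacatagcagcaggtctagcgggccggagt
ACOT11 promoter (chr1:55008063-55008263, plus strand): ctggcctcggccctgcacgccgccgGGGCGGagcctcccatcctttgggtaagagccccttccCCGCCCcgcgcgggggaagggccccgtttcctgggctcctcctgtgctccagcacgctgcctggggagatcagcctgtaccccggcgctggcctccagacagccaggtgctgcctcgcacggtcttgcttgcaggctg
IGSF3 intron (chr1:117185860-117186060, plus strand): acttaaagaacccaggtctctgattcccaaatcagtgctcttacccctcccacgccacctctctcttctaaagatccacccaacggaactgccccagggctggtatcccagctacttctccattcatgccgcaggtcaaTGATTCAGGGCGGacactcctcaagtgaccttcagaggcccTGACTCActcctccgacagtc
MGC27382 intron (chr1:78742891-78743091, plus strand): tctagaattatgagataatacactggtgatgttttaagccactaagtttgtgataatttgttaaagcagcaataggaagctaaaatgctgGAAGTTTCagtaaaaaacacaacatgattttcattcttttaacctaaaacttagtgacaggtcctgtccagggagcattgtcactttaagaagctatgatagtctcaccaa
locus near EDN2 (chr1:41958965-41959165, plus strand): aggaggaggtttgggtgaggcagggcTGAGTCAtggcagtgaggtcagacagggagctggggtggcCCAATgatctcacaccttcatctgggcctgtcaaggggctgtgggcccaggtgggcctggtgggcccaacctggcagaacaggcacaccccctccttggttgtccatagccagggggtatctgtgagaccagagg
HSPA6 promoter (chr1:161493857-161494057, plus strand): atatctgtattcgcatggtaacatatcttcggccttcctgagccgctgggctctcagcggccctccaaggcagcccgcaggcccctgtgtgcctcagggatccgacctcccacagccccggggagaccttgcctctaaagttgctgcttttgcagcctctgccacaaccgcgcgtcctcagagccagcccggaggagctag
H3-3A promoter (chr1:226250154-226250354, plus strand): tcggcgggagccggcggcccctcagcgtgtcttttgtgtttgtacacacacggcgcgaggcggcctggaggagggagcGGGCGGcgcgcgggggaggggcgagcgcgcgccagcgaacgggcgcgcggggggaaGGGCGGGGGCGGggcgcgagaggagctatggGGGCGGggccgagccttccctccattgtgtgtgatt
CD34 promoter (chr1:208063750-208063950, plus strand): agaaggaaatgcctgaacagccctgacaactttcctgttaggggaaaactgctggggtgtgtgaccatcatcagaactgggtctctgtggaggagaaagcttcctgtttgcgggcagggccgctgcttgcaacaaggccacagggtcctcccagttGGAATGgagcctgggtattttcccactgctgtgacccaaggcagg
RASSF5 intron (chr1:206686931-206687131, plus strand): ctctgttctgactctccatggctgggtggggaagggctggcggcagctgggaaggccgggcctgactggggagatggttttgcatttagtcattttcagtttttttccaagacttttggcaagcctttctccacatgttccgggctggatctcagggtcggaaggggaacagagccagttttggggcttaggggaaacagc

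A match describes letters in the window and not a bound site. Over the 1720 loci of chromosome 1 found in all 6 libraries, windows of the same length held an AP-1 match in 22.5%, a GC box in 27.6%, a CCAAT box in 22.8%, an ETS match in 5.23%, a heat shock element in 4.88%, a TEAD match in 15%, a CTCF core in 7.85% and an E-box in 4.19%. Promoter and distal loci differed in these letters. The GC box was in 52.9% of the 782 promoter windows and 6.40% of the 938 distal windows, while the AP-1 match was in 8.06% of promoter windows and 34.5% of distal windows. The median GC content was 64.7% at promoters and 47.3% at distal loci. The IPO13 promoter held 4 motifs (a GC box, an ETS match, a TEAD match and an E-box) and was 71.6% GC. The intron locus of IGSF3 held 2 AP-1 matches. The CD34 promoter locus, at a transcript start inside the gene, had 2 CpG dinucleotides against 29 in the H3-3A promoter and held a TEAD match alone.

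The 2 arms were first compared within each library, a comparison that did not use the groups, although the chromosome had been chosen from these same lists. The 6 libraries came from 2 lines, so these p-values do not cover differences among lines. The long arm carried more summits for its sequenced length. Over the 6 libraries, the short arm held 14.6 ± 2.08 summits per Mb and the long arm 16.8 ± 1.65 (mean ± SD), with the short arm lower in 6 of 6 libraries (difference -2.18, exact paired permutation test, two-sided, p = 0.031, the smallest these 6 pairs can give, adjusted p = 0.0469 over 3 comparisons). A summit within 1 kb of an annotated transcript start is called a promoter summit here, and every other summit distal. That start may be an alternative one inside a gene, far from the gene's outermost start. Promoter summits made up 38.9% ± 1.90 of short-arm summits and 36.2% ± 1.11 of long-arm summits, higher on the short arm in 6 of 6 libraries (exact paired permutation test, two-sided, p = 0.031, adjusted p = 0.0469). That call was lost when promoters were drawn at 2.5 kb (difference 2.04 percentage points, exact paired permutation test, p = 0.0938). Strength was read as a percentile rank: each library's summits were ranked by their score, the −log10 of the q value of the peak, from 0 for the weakest to 100 for the strongest. At loci found in all 6 libraries the median rank was 74.4 on the short arm and 76.8 on the long arm, and this difference of -2.43 did not pass the test (exact paired permutation test, p = 0.250). All 3 differences between the arms separated the groups. In summits per Mb, short minus long was -2.92, -3.35 and -2.95 for parental cells against -1.11, -1.26 and -1.51 for SAP30-KO1 cells. In promoter share it was 3.78, 4.78 and 3.62 percentage points against 1.65, 1.90 and 0.481. In median rank it was -5.49, -8.47 and -5.95 against 1.96, 1.57 and 1.82, so that its sign changed between the groups. In the test of median rank over all 6 libraries the groups therefore offset each other.

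Between the groups, the short arm took a larger part of the summits in SAP30-KO1 cells and the long arm did not. The short arm held 4.86%, 4.83% and 4.77% of all summits of the parental libraries and 5.53%, 5.38% and 5.40% of those of the SAP30-KO1 libraries. The groups did not overlap, and the means were 4.82% ± 0.0433 and 5.44% ± 0.0810 (SD, n = 3 each), a log2 ratio of 0.17. The long arm held 5.06%, 5.35% and 5.07% in parental cells and 5.20%, 5.01% and 5.16% in SAP30-KO1 cells, which overlapped (5.16% ± 0.167 against 5.12% ± 0.103). With summits at a q value of 0.0001 or less alone, the long-arm shares no longer overlapped and were lower in SAP30-KO1 cells (difference -0.205 percentage points). Ranks showed the same contrast. At the 816 short-arm loci the median rank was 73.1, 67.2 and 70.1 in parental cells and 75.4, 82.1 and 78.3 in SAP30-KO1 cells, again with no overlap. The groups overlapped when loci in at least 4 libraries were taken, with rank 0 where a summit was absent (median difference 6.66). At the 904 long-arm loci it was 78.6, 75.7 and 76.0 against 73.4, 80.5 and 76.5. For each locus the rank difference was the mean of the SAP30-KO1 ranks minus the mean of the parental ranks, in percentile points. Its median was 5.28 on the short arm (quartiles -1.37 and 14.3) and -0.24 on the long arm (quartiles -7.31 and 6.50), and it was above 0 at 69.6% and 48.3% of loci. Among 41 chromosome arms with at least 20 such loci, the short arm of chromosome 1 ranked 3rd by this median, after the long arm of X (7.65) and the short arm of chromosome 4 (7.5), and the long arm of chromosome 1 ranked 27th.

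A locus is called apart here when all 3 libraries of one group ranked above all 3 of the other. Over the whole genome 8.58% of the 16314 loci found in all 6 libraries were apart with SAP30-KO1 higher and 7.08% with SAP30-KO1 lower. On the short arm 153 of 816 loci (18.8%) were apart and higher in SAP30-KO1 cells, and 19 (2.33%) were apart and lower. The long arm stood near the genome on both counts, with 74 of 904 (8.19%) higher and 66 (7.30%) lower. Some loci had a summit in all 3 libraries of one group and none of the other. Those present in SAP30-KO1 cells only followed the same order, with 69 on the short arm (2.37%) and 31 on the long arm (1.13%), where the whole genome had 1.43%. Those in parental cells only did not differ between the arms, with 17 on the short arm (0.584%) and 16 on the long arm (0.583%), where the genome had 0.876%.

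The difference was not spread along the whole short arm. In windows of 10 Mb, the 4 windows nearest the tip had median rank differences of -0.34, -1.56, -0.81 and -2.98, and the next 8 had 9.65, 4.62, 6.43, 10.3, 6.04, 5.68, 11.6 and 7.10. The 11 windows of the long arm lay between -4.10, at 200 to 210 Mb, and 2.15, at 170 to 180 Mb. Across the genome 16.3% of 276 windows with at least 20 common loci had a share of summits apart and higher in SAP30-KO1 cells, 16.7% apart and lower, and 11.2% had a median rank apart and higher and 7.25% apart and lower. On chromosome 1, 7 of 23 such windows were apart and higher by share and 7 by rank, and none was apart and lower by rank. The higher windows by either measure were 7 of the 8 between 40 Mb and the centromere, the exception being that at 50 to 60 Mb, and a single window, at 160 to 170 Mb, was apart and lower by share. The share of summits at 100 to 110 Mb was 0.292%, 0.240% and 0.265% in parental cells and 0.343%, 0.344% and 0.353% in SAP30-KO1 cells, a log2 ratio of 0.39. At 50 to 60 Mb the shares overlapped, with 0.447%, 0.505% and 0.453% against 0.501%, 0.507% and 0.496%.

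**Figure D1:**
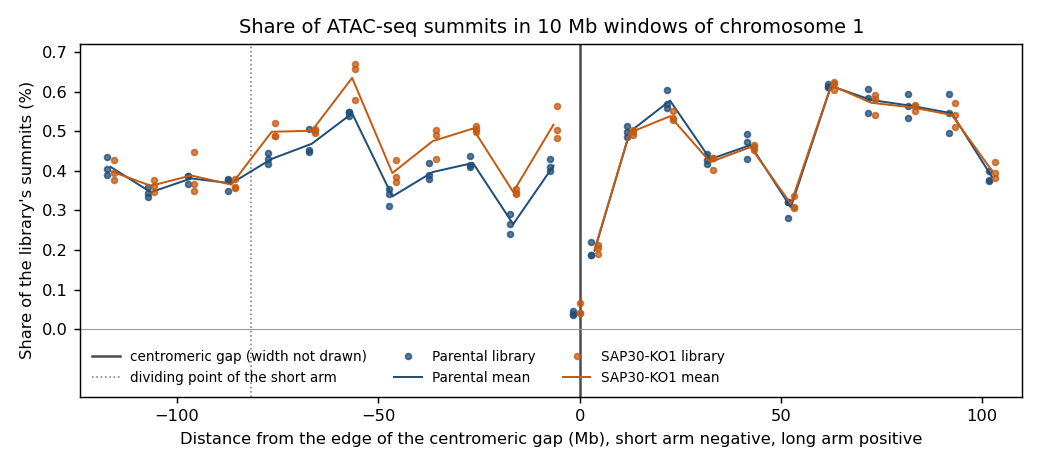
Share of each library's summits (percent, y axis) in 10 Mb windows of chromosome 1, by distance from the centromeric gap (Mb, x axis), with parental libraries in blue, SAP30-KO1 libraries in orange and lines at the group means of windows with at least 20 common loci. From the dotted line, at 40 Mb from the tip, to the gap the orange points sat above the blue ones in 7 of 8 full windows, while on the long arm the lines ran together.

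**Figure D2:**
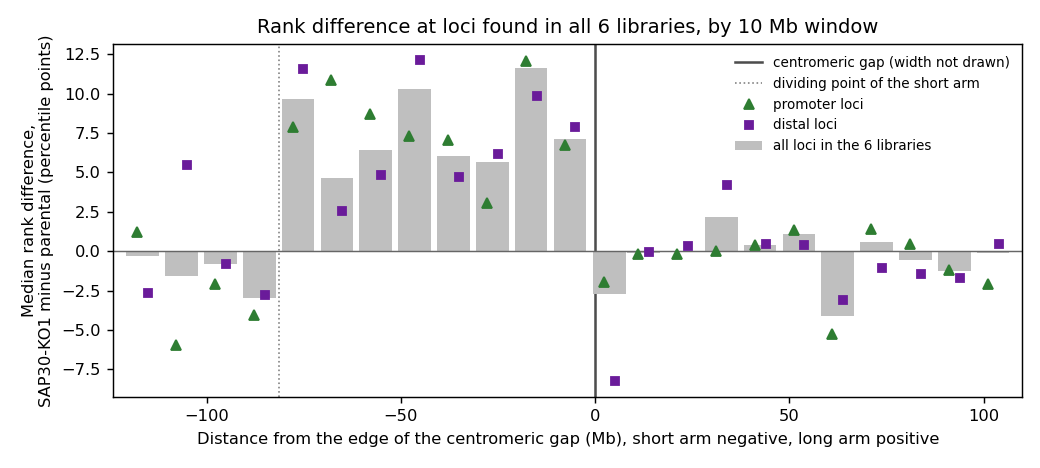
Median rank difference between SAP30-KO1 and parental cells (percentile points, y axis) at loci found in all 6 libraries, by 10 Mb window (x axis, distance from the centromeric gap in Mb), for all loci (bars), promoter loci (triangles) and distal loci (squares). Bars between the dotted line and the gap reached 4.62 to 11.6, and bars on the long arm stayed between -4.10 and 2.15.

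The short arm was then divided at 40 Mb, a point chosen after these values had been seen. In the 40 Mb nearest the tip, 198 loci were found in all 6 libraries and the median rank was 61.1, 57.0 and 63.7 in parental cells and 53.3, 69.6 and 58.0 in SAP30-KO1 cells. These values overlapped, the median rank difference was -1.24, and 9 loci were apart and higher against 7 apart and lower. The share of summits there was 1.54%, 1.52% and 1.46% against 1.45%, 1.61% and 1.49%. From 40 Mb to the centromere, 618 loci had a median rank of 75.7, 70.4 and 73.9 in parental cells and 81.1, 86.1 and 83.2 in SAP30-KO1 cells. Every SAP30-KO1 library lay above every parental library in that stretch, the median rank difference was 7.08 (quartiles 0.65 and 17), and 77.8% of loci were higher. There 144 loci (23.3%) were apart and higher and 12 (1.94%) apart and lower. The share of summits was 3.32%, 3.31% and 3.31% in parental cells and 4.08%, 3.77% and 3.91% in SAP30-KO1 cells, a log2 ratio of 0.24. The stretch below 40 Mb was also the gene-rich one, with 546 protein-coding genes in it and 547 in the rest of the arm, and its loci had a median GC content of 59.7% against 52.2% beyond 40 Mb and 52.7% on the long arm.

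The difference was above 0 for weak and strong loci. Loci between 40 Mb and the centromere were binned by their mean rank over the 6 libraries. The median difference was 9.12 below rank 50 (81 loci), 11.1 from 50 to 75 (230 loci), 8.43 from 75 to 90 (184 loci) and 2.51 above 90 (123 loci), where little room is left for a higher rank. Loci outside chromosome 1 had medians of 0.85, 0.27, -0.17 and -0.07 in the same bins.

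Promoters and distal loci were both higher between 40 Mb and the centromere. At the 269 promoter loci of that stretch the median rank was 78.1, 71.2 and 76.5 in parental cells and 82.0, 86.6 and 84.3 in SAP30-KO1 cells. At the 349 distal loci it was 75, 69.2 and 71.8 against 80.4, 85.7 and 82.7. Neither class overlapped between the groups, and the median rank differences were 7.42 and 6.57. Of these promoter loci 57 (21.2%) were apart and higher and 4 (1.49%) apart and lower, where all promoter loci of the genome gave 7.23% and 6.21%. Of the distal loci 87 (24.9%) were apart and higher and 8 (2.29%) lower, where all distal loci gave 9.67% and 7.78%. On the long arm the medians were -0.15 for promoters, with 23 of 396 apart and higher and 25 lower, and -0.34 for distal loci, with 51 of 508 higher and 41 lower.

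**Figure D3:**
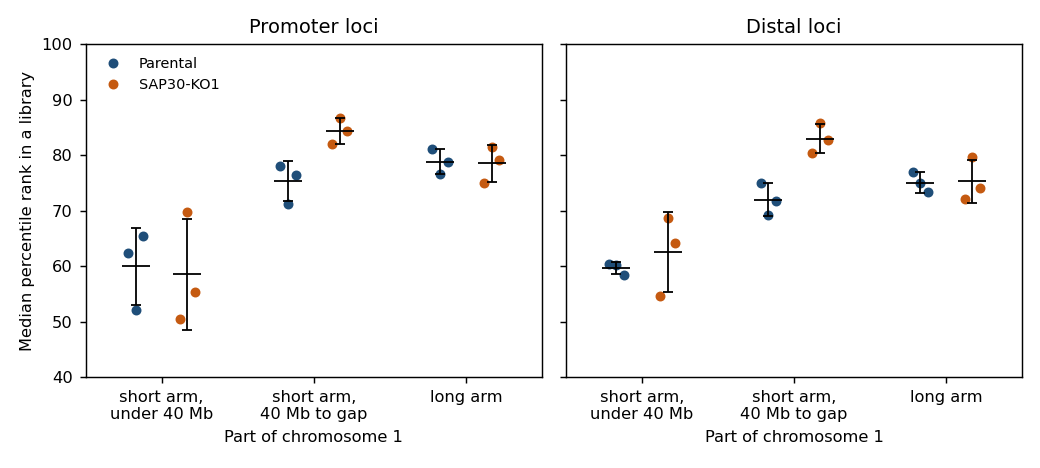
Median percentile rank of loci found in all 6 libraries (y axis, drawn from 40 to 100) in the 3 stretches of chromosome 1 (x axis), for promoter loci (left) and distal loci (right). Points are libraries, and lines with bars are the mean and SD of 3 libraries: between 40 Mb and the gap the parental libraries lay at 71.2 to 78.1 for promoters and the SAP30-KO1 libraries at 82.0 to 86.6.

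The larger share of summits lay mostly outside promoters. Between 40 Mb and the centromere distal summits made up 2.16%, 2.09% and 2.13% of the parental lists and 2.64%, 2.61% and 2.64% of the SAP30-KO1 lists, which did not overlap (log2 ratio 0.31). Promoter summits there made up 1.16%, 1.23% and 1.18% against 1.44%, 1.17% and 1.28%, which did (log2 ratio 0.12). The part of short-arm summits that lay at promoters was 39.5%, 41.2% and 40.3% in parental cells and 39.2%, 36.2% and 37.2% in SAP30-KO1 cells, while on the long arm it was 35.7%, 36.5% and 36.7% against 37.5%, 34.3% and 36.7%. Of the 69 short-arm loci in SAP30-KO1 cells only, 62 were distal, and of the 17 in parental cells only, 13 were, where 1971 of all 2910 short-arm loci were distal. Over the whole genome 664 of 809 loci in SAP30-KO1 cells only and 385 of 494 in parental cells only were distal.

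**Figure D4:**
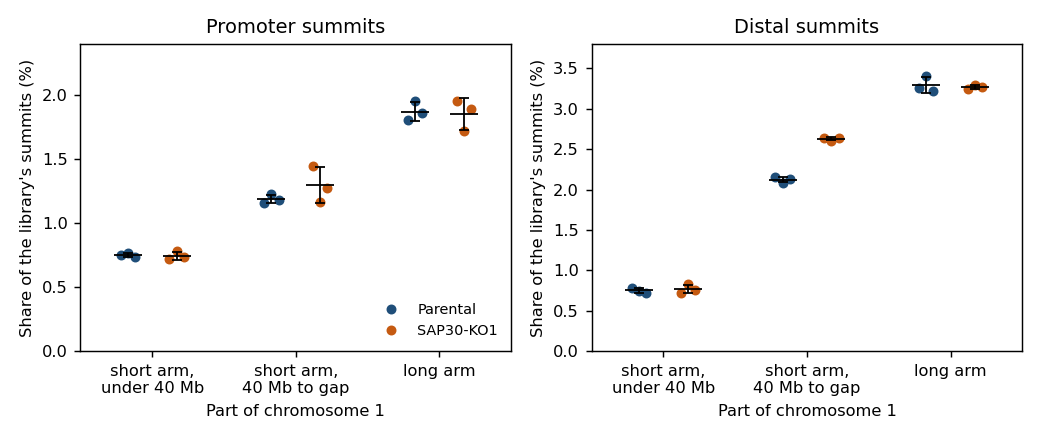
Share of each library's summits (percent, y axis from 0) that were promoter summits (left) or distal summits (right) in the 3 stretches of chromosome 1 (x axis). Points are libraries, and lines with bars are the mean and SD of 3 libraries: distal summits from 40 Mb to the gap were at 2.09% to 2.16% in parental cells and 2.61% to 2.64% in SAP30-KO1 cells.

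Motif content was compared between the apart loci and the others of the same stretch. Between 40 Mb and the centromere, a GC box was in 61.4% of the 57 promoter loci that were apart and higher and in 50.5% of the other 212 promoters, and an AP-1 match was in 40.2% of the 87 distal loci that were apart and higher and in 34.7% of the other 262. At promoters the AP-1 match went the other way, with 0% of the 57 against 9.91% of the 212. The CCAAT box, the TEAD match and the CTCF core were less frequent at the higher distal loci. Their shares were 13.8% against 22.9%, 14.9% against 21.0%, and 1.15% (1 locus) against 5.73%. At promoters none of the 3 was less frequent, with 29.8% against 21.7%, 12.3% against 8.02%, and 12.3% against 11.8%. Median GC content was the same at both sets of distal loci, 46.3%, and was 65.7% and 65.4% at the promoters. These shares were not tested.

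The study follows 3 genes on chromosome 1 as repressed by SAP30 with SIN3A and SIN3B: IPO13 and ARTN on the short arm and HSPA6 on the long arm. They were chosen by the study on its own data, so they are not independent evidence of a direction. From genome browser views of its ATAC-seq signal, the study describes IPO13 and HSPA6 as more accessible after SAP30 knockout. The ranks given here are of peak scores within each list, another measure than that signal, so they do not repeat its comparison. IPO13 encodes an importin that carries proteins into and out of the nucleus, and its promoter locus was chr1:44411767-44412812, whose central bases are printed above. Its rank was 73.5, 56.7 and 64.5 in parental cells and 12.9, 90.8 and 87.1 in SAP30-KO1 cells. SAP30-KO1 replicate 1 was the lowest of the 6 libraries and the other 2 SAP30-KO1 libraries were the highest, so the groups overlapped and the difference of means was -1.35. HSPA6 encodes an inducible heat shock protein of the HSP70 family. Its promoter rank was 61.0, 12.3 and 76.3 in parental cells and 32.9, 82.9 and 69.5 in SAP30-KO1 cells, a difference of 11.9 with overlapping groups. ARTN, which encodes the growth factor artemin, had no promoter summit in any library.

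The promoters near IPO13 were described with it. Of 16 protein-coding genes with a start within 500 kb, 5 had a promoter locus in all 6 libraries, at 4 loci, and all 5 were higher, with 2 of the loci apart, in a stretch where 79.2% of such promoter loci were higher and 21.2% apart and higher (7.23% in the genome). The promoter shared by KDM4A, a histone demethylase, and ENSG00000284989 had ranks of 74.8, 52.1 and 78.7 in parental cells and 93.9, 83.5 and 96.2 in SAP30-KO1 cells. ERI3, an exoribonuclease gene, had 43.4, 12.7 and 48.6 against 73.4, 55.2 and 86.4. Both sets stood clear of each other, with differences of 22.7 and 36.8. ST3GAL3, a sialyltransferase gene, had no summit in parental replicate 1 (rank set to 0), ranks of 4.54 and 26.0 in the other 2 parental libraries and 68.2, 81.2 and 61.5 in SAP30-KO1 cells. PTPRF, a receptor phosphatase (difference 3.15), and DPH2, a diphthamide synthesis gene (difference 11.6), overlapped between the groups. Around HSPA6, of 36 genes, 7 had a promoter locus in all 6 libraries, at 6 loci, and 4 genes were higher. Of these loci 2 were apart, both lower, where 6.31% of long-arm promoter loci and 6.21% of those in the genome were. They were the promoters of PPOX, an enzyme of haem synthesis, at 94.8, 95.2 and 96.7 against 89.6, 93.1 and 89.5, and TOMM40L, a mitochondrial import gene, at 93.0, 87.1 and 93.1 against 79.3, 85.1 and 80.1.

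Among all 2092 protein-coding genes of the chromosome, each represented by its promoter locus with the highest mean rank, 372 of 1093 short-arm genes and 347 of 999 long-arm genes had that locus in all 6 libraries. On the short arm 58 genes were apart and higher and 8 lower, and on the long arm 20 and 21, where 7.18% of such genes in the genome were higher and 5.92% lower. Of the 58 higher genes 55 lay between 40 Mb and the centromere, where 260 genes had a common promoter locus, and 3 lay below 40 Mb, where 112 did. The median difference was 7.26 for the former and -1.24 for the latter.

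Loci with the largest differences were ranked among those found in all 6 libraries and apart, so promoters absent from some libraries, such as that of ST3GAL3 (difference 60.1), do not enter. On the short arm the promoters with the largest differences upward were those of CTBS, ACOT11, GUCA2A, JAK1 and STXBP3, all between 42 and 110 Mb. CTBS encodes chitobiase, a lysosomal enzyme that trims glycoprotein sugars. Its promoter locus, chr1:85039485-85040481, had ranks of 33.1, 20.4 and 12.2 in parental cells and 82.8, 75.9 and 90.8 in SAP30-KO1 cells, a difference of 61.3. ACOT11, an acyl-CoA thioesterase (chr1:55007655-55008605), had 67.9, 17.8 and 29.8 against 71.9, 95.9 and 76.7. In that case parental replicate 1 stood close below the SAP30-KO1 libraries. A promoter locus of JAK1, the kinase that signals from interferon and cytokine receptors (chr1:65431624-65432738), had 70.3, 28.0 and 51.7 against 91.5, 93.4 and 81.8. GUCA2A, which encodes guanylin, and STXBP3, a syntaxin-binding protein, had differences of 40.5 and 38.4. Going the other way, MYSM1, a histone H2A deubiquitinase, had 82.9, 83.3 and 78.8 in parental cells and 12.2, 56.4 and 50.2 in SAP30-KO1 cells. Its difference of -42.1 was followed, among promoter loci of the arm that were found in all 6 libraries and apart, by CROCCP3 (-19.9), the pair C1orf109 and CDCA8 (-18.2), the pair MORN1 and RER1 (-17.2) and LRRC8C (-16.6). Of these 5 lower promoters, CROCCP3, C1orf109 with CDCA8 and MORN1 with RER1 lay below 40 Mb.

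Distal loci on the short arm showed differences of the same size. An intron locus of IGSF3, an immunoglobulin superfamily gene (chr1:117185584-117186455), had ranks of 71.9, 4.54 and 13.9 in parental cells and 88.6, 83.3 and 94.0 in SAP30-KO1 cells. An intron locus of the noncoding gene MGC27382, 26577 bp from the start of the prostaglandin receptor gene PTGFR (chr1:78742708-78743538), had 62.2, 34 and 33.6 against 97.0, 96.3 and 97.2, which placed it among the strongest summits of all 3 SAP30-KO1 lists. The others among the 5 largest lay in introns of ITGB3BP (difference 50.2) and TTF2 (46.1) and 26732 bp from SAMD13 (49.8). Lower distal loci were in introns of GNG12-AS1 (-30.5), PKN2-AS1 (-27.4) and ZC3H12A-DT (-27.3) and near POMGNT1 (-27.0) and LEPR (-25.9). The strongest loci found in SAP30-KO1 cells only lay 8711 bp from EDN2, which encodes endothelin 2 (chr1:41958783-41959318), with ranks of 58.6, 72.4 and 90.4, 210148 bp from FOXD3 (75.4, 78.2 and 67.7) and in an OLFM3 intron (47.7, 75.9 and 89.7). Those found in parental cells only lay 100162 bp from PTGFR (80.7, 46.3 and 64.5), in an intron of WLS, the carrier of secreted Wnt proteins (29.2, 51.5 and 44.6), and in an intron of PDE4B, a cAMP phosphodiesterase (39.7, 69.6 and 15.2).

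On the long arm single loci found in all 6 libraries were apart in both directions. Its higher promoters included those of H3-3A, TARS2, IGSF9 and SYT14. H3-3A, which encodes the replacement histone H3.3 (chr1:226249381-226250701), had ranks of 71.3, 9.35 and 26.4 in parental cells and 73.8, 82.8 and 76.1 in SAP30-KO1 cells. Differences were 41.9 for H3-3A, 41.5 for TARS2, a mitochondrial threonyl-tRNA synthetase, 38.1 for IGSF9 and 33.9 for SYT14. Among its lower promoters, CD34, a surface sialomucin of blood stem cells and endothelium (chr1:208063400-208064159), had 89.0, 61.4 and 76.3 in parental cells and 5.24, 56.5 and 4.40 in SAP30-KO1 cells, a difference of -53.5. That locus lay 13 bp from a transcript start inside the gene. At the gene's outermost start, position 208084747, no library had a promoter summit. KIAA0040 had 76.0, 86.1 and 79.7 against 36.0, 28.8 and 25.7 (-50.4), and the G0S2 promoter, of an inhibitor of fat breakdown, had 92.0, 93.7 and 85.8 against 48.0, 67.2 and 39.8 (-38.8). The promoter between C1orf131 and GNPAT (-48.3) and that between C1orf105 and PIGC (-35.9) completed the 5. Among distal loci of the long arm, introns of ENSG00000236230 (53.5), PLXNA2 (48.6), RABGAP1L (43.9) and BCL9 (43.7) and a locus 60924 bp from SLC35F3 (42.9) were higher. Introns of RASSF5 (-54.5) and ZNF496-DT (-50.3), a locus 716019 bp from ZP4 (-48.6) and an exon of SLC30A10 (-46.5) were lower. A promoter locus of CD1D, which presents lipid antigens, was found in parental cells only, at ranks of 88.8, 36.6 and 73.2, as were intron loci of LINC00970 and CAPN2. In SAP30-KO1 cells only, the strongest were introns of ENSG00000286774 and ENSG00000225233 and a locus 266069 bp from PLXNA2.

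In the 10 Mb window with the highest median difference, 100 to 110 Mb, the promoters of STXBP3 (38.4), CLCC1 (28.4), SORT1 (23.9), ENSG00000283761 (23.2) and PSRC1 (22.7) led. Being picked by the size of their difference, 4 of the 5 were apart. Of all 25 common promoter loci in that window, 9 were apart and higher, where 7.23% of promoter loci in the genome were. SORT1, which encodes the sorting receptor sortilin, had ranks of 70.5, 52.4 and 55.1 in parental cells and 82.2, 88.4 and 79.0 in SAP30-KO1 cells. In the window with the lowest median, 200 to 210 Mb, the promoters of CD34, G0S2, TRAF3IP3 (-25.3), SNRPE (-14.6) and RABIF (-14.4) led downward, and CD34 and G0S2 were apart. Of all 41 common promoter loci in that window, 3 were apart and lower, where 6.21% of promoter loci in the genome were.

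Gene lists were counted on each arm, beside all protein-coding genes with a common promoter locus, of which 58 of 372 were apart and higher and 8 lower on the short arm (55 and 4 of 260 beyond 40 Mb), and 20 of 347 higher and 21 lower on the long arm. Of 9 short-arm chromatin regulators, 3 had a common promoter locus and KDM4A was apart. PRDM2 (8.0) and PRMT6 (5.24), both methyltransferase genes, overlapped between the groups. The SIN3 complex members HDAC1 and RBBP4, at 32.8 and 33.1 Mb, had promoter summits in 3 and 5 of 6 libraries. RBBP4 ranks were 28.8, 25.3 and 60.2 in parental cells and 8.45, 24.5 and 0 (no summit) in SAP30-KO1 cells, each below every parental value. On the long arm ARID4B, another SIN3-associated gene, had 74.7, 75.9 and 72.1 against 82.1, 77.9 and 65.6. None of the 3 long-arm regulators with a common locus was apart, with differences from -1.22 for CHD1L to 1.36 for SMYD2.

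Of 11 short-arm cancer genes, 4 had a common promoter locus and 2 were apart, both higher and both beyond 40 Mb, where 55 of 260 genes were. CDKN2C, an inhibitor of the cell-cycle kinases CDK4 and CDK6, had ranks of 83.8, 38.4 and 69.6 in parental cells and 87.6, 92.5 and 89.0 in SAP30-KO1 cells, and FUBP1, a regulator of MYC transcription, had 73.2, 64.2 and 76.6 against 90.8, 86.2 and 86.8. CASP9 (-11.9) and JUN (-4.49), the AP-1 subunit, overlapped between the groups. JUN stood near the top of every list, at 96.0, 98.9 and 99.3 against 97.0, 87.5 and 96.3. NRAS had a summit in 4 libraries, and RUNX3 had none. Of 13 long-arm cancer genes 9 had a common locus. The survival gene MCL1 had 80.7, 44.3 and 69.0 against 5.49, 36.6 and 55.2 (-32.3) and ARNT, the partner of hypoxia-inducible factors, had 53.1, 25.8 and 50.7 against 82.3, 86.8 and 50.9 (30.1). Both overlapped. PARP1, a DNA repair enzyme, had a difference of -15.9.

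**Figure D5:**
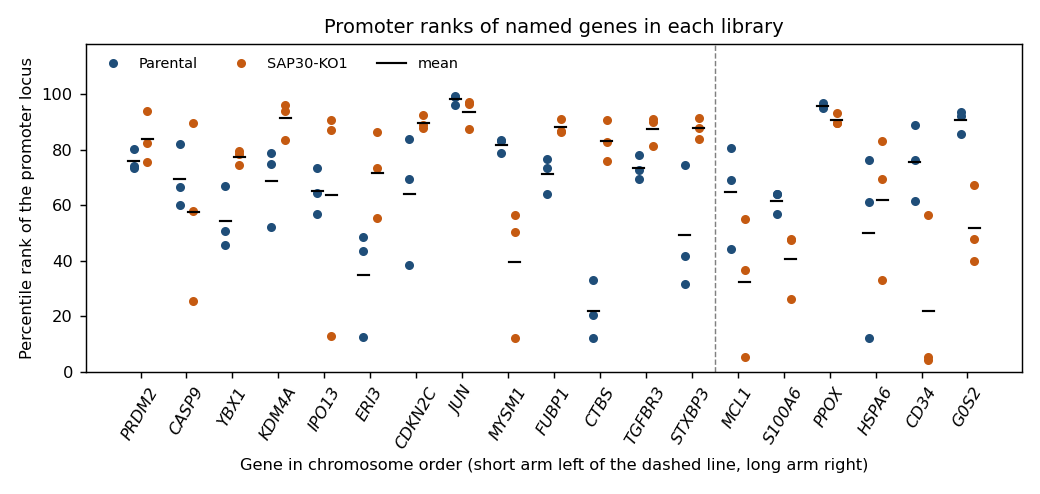
Percentile rank (y axis) of the promoter locus of 19 named genes in each library, in chromosome order (x axis), with parental libraries in blue, SAP30-KO1 libraries in orange and black lines at the group means. Short-arm genes such as KDM4A and CTBS had all orange points above all blue ones, MYSM1 had the reverse, and IPO13 and HSPA6 overlapped.

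Among 21 short-arm genes for adhesion, motility and matrix, all 5 with a common promoter locus lay beyond 40 Mb and had differences of 2.12 to 14, with TGFBR3 apart and higher, beside the same 55 of 260 genes. TGFBR3, a TGF-β co-receptor, had ranks of 72.7, 69.3 and 78.0 in parental cells and 89.8, 91.0 and 81.2 in SAP30-KO1 cells. F3, which encodes tissue factor, had a difference of 11.9, COL11A1 of 7.41 and RHOC of 2.12, and 6 genes, among them VCAM1 and PDPN, had no promoter summit. The TGFBR3 and COL11A1 loci, centred at 92351650 and 103345308, lay at transcript starts inside these genes. Their outermost starts, at 92371892 and 103574428, had no promoter summit in any library. On the long arm 5 of 12 had a common locus and none was apart. PTGS2, the inducible cyclooxygenase, differed by -3.57, CAPN2 by 4.99 and TGFB2 by 11.3. Of 15 short-arm transcription factors 4 had a common locus, all beyond 40 Mb, and 1 was apart. YBX1, a DNA- and RNA-binding factor, was apart, with 66.9, 45.6 and 50.7 against 74.5, 79.6 and 78.3, and FOXD2 (15.4) and NFIA (13.3) were not. POU3F1, a POU-domain factor at 38.5 Mb with a summit in 4 libraries, had the largest difference of that list and in the opposite direction, with 52.1, 51.0 and 87.0 against 0, 0 and 28.6 (-53.8). On the long arm 5 of 16 did, none was apart, and differences ran from -3.65 for HLX to 1.53 for PROX1. The S100 and epidermal differentiation genes form a cluster on the long arm, where 15 of 25 had no promoter summit. Of the 8 with a common locus, S100A6, a calcium-binding protein, was apart and lower, as were 21 of all 347 long-arm genes (63.9, 57.0 and 64 against 26.2, 47.5 and 47.8), and S100A10 had the highest difference (4.25).

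The loci nearest the gap on each side differed in strength. The last short-arm locus before the gap, chr1:121484829-121485377, was at rank 100 in all 6 libraries, and the one before it, chr1:121328309-121329134, had 75, 72.0 and 92.7 against 94.8, 86.0 and 94.5. The first long-arm loci found in all 6 libraries were at FAM72D (chr1:143913026-143913878), with ranks between 95.6 and 98.9, and in an exon of PDE4DIP, with 67.4, 79.0 and 70.9 against 76.7, 80.3 and 77.3. The mean rank of the PDE4DIP locus, 75.3, was below the long-arm median of 76.8. Other loci at the top of every list were the promoter of KYAT3 and RBMXL1, introns of HFM1 and ENSG00000234810, and a stretch near the short-arm tip that holds the mitochondrial pseudogenes MTATP6P1, MTATP8P1 and MTCO3P12 (chr1:569570-570072). On the long arm they were KIFAP3, PMF1, METTL13, SLC19A2 and EDEM3. With the locus beside the gap these made 10 loci, the 5 with the highest mean rank on each arm, and their lowest rank in any library was 99.2. No blacklist is given in the sources used here, and whether these ranks reflect open chromatin or repeated sequence was not tested.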

How the data were processed

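Chromatin accessibility was measured by ATAC-seq on 50000 cells per library in 3 parental and 3 SAP30-KO1 libraries, grouped and numbered by the sample titles. Per the study's methods, the authors sequenced 75 bp single-end reads, trimmed them with Trim Galore (0.4.5), aligned them to hg19 with Bowtie2 (2.3.3.1), discarded duplicate alignments with Picard and took peaks from MACS2 (2.1.0) at a q value of 0.05. The deposited lists give 1 summit per peak with a score, the −log10 q value made by the authors' peak caller, read as such from the lowest scores (1.31 to 1.33). A shift of reads for the transposase and a blacklist are not given in the sources used here. Read counts per peak are not in the lists. The depth behind a score is therefore unknown, intervals for counting error could not be computed, and scores were compared as percentile ranks within a list. Summits were extended by 250 bp and merged, and a locus took the highest rank of its summits in a library. Gene starts came from GENCODE release 44 mapped to GRCh37, within 1 kb for promoters. A gene was represented by its promoter locus with the highest mean rank, which may lie at any annotated transcript start of the gene. Named genes were all members of 6 lists by count, with the 2 highest and 2 lowest differences, the study's 3 genes with neighbours within 500 kb, and on each arm the 5 promoter and 5 distal loci with the largest differences each way among those apart, the 5 with the highest mean rank and the 3 strongest present in one group only, and the promoters with the largest differences in the windows with the highest and lowest median. The members and lists were chosen with earlier results of these data known. Arms were compared within libraries by an exact paired permutation test with Benjamini-Hochberg adjustment over 3 comparisons. The code was tested on simulated data (Python 3.11.15, numpy 2.4.6, pandas 2.3.3). PECAM1 was a planned marker and was not found under that name in the annotation used. Some loci that these rules name are not reported here.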

Additional observations from a re-analysis of the deposited data

Results flagged for a closer look

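The difference in median rank between the arms, short minus long, was below 0 in all 3 parental libraries (mean -6.64 ± 1.60) and above 0 in all 3 SAP30-KO1 libraries (mean 1.78 ± 0.201), 8.42 percentile points apart. It stands out because every library of one group moved one way and every library of the other the opposite way. The difference between the groups was not tested, since the chromosome had been chosen for it.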

How the results depend on the processing

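Over the alternatives without a library left out, 217 of 251 values stayed within the spread of the libraries, within 1.5 times a count or on the same side of a test, and no called value changed sign. Shifts as log2 of the score are on another scale, so they were kept among the 217 unless a called one changed sign. Some of the 217 could not change, because the alternative does not enter them. Examples are shares and summits per Mb with 100 bp on each side, and shares with the replicate block. The short arm's share of summits and its median rank stayed higher on average in SAP30-KO1 cells under each alternative that recomputed them. At a q value of 0.0001 or less the long-arm difference in share was -0.205, with the groups no longer overlapping, the short minus long difference in median shift 7.0 (5.52 as reported), the loci apart and lower 11 on the short arm and 6 beyond 40 Mb, and the short-arm loci in parental cells only 6. With the same number of top-ranked summits per library the short-arm difference in share was 0.531, that below 40 Mb -0.0885, the long-arm promoter medians no longer overlapped (-0.23), and the long-arm loci in SAP30-KO1 cells only numbered 19. With 100 bp on each side, loci apart and higher numbered 101 on the short arm, 95 beyond 40 Mb and 44 on the long arm, those apart and lower beyond 40 Mb 6, and long-arm loci in parental cells only 25. With loci in at least 4 libraries, at rank 0 where absent, the short-arm medians overlapped between the groups for all, promoter and distal loci (shifts 6.66, 5.13 and 7.59), the difference of the arms' shifts was 6.81, and loci apart numbered 250 higher and 43 lower on the short arm (24 and 18 below 40 Mb, 226 and 25 beyond) and 119 and 104 on the long arm. Loci with 1 summit in every library left 3 apart and lower below 40 Mb, and the short-arm promoter medians overlapped (4.28). Promoters within 2.5 kb gave an arm difference in promoter share of 2.04 (exact paired permutation test, p = 0.0938). In windows of 5 Mb, 12 were apart and higher by share and 14 by rank, 2 of the latter on the long arm (185 to 190 and 195 to 200 Mb), and 3 long-arm windows were apart and lower by rank (from 210, 230 and 245 Mb). As log2 of the score over the list's median, an alternative chosen after the data were seen, the shifts were 0.21 on the short arm, 0.28 beyond 40 Mb and -0.02 on the long arm, and the short-arm promoter medians overlapped between the groups.

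The replicate numbers did not pair the libraries (correlations of deviations between -0.018 and -0.003 for the same numbers). With the replicate block, which counts a locus when its 3 same-numbered pairs move one way and is met more easily, loci numbered 242 higher and 50 lower on the short arm (18 and 21 below 40 Mb, 224 and 29 beyond) and 139 and 150 on the long arm. The other calls are not computed from the pairs, so they could not change with it.

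Leaving out 1 library at a time, the short-arm difference in share was 0.572 to 0.646 and its median shift 3.68 to 7.01. Beyond 40 Mb these were 0.528 to 0.683 and 5.60 to 7.89. Below 40 Mb and on the long arm the median shift ran from -4.38 to 2.3 and from -1.27 to 1.22. Fewer libraries overlap less often by construction, and counts rose for each library left out: apart and higher 190 to 254 on the short arm, 12 to 29 below 40 Mb, 178 to 225 beyond and 99 to 147 on the long arm, apart and lower 38 to 59, 13 to 28, 19 to 31 and 105 to 141. Loci in SAP30-KO1 cells only numbered 92 to 142 on the short arm and 46 to 81 on the long arm, and in parental cells only 23 to 43 and 27 to 43. With 5 libraries the exact paired permutation test cannot go below 0.0625, and the arm differences were -2.40 to -1.95 summits per Mb and 2.29 to 3.15 percentage points of promoter summits. Ranks compare loci within a list, so equal ranks in 2 lists need not be equal accessibility, and a summit that is absent from a list may lie just under its threshold.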
